A study of Homo sapiens with 6 samples.

Results

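This report describes 10 aldo-keto reductases, namely AKR1A1, AKR1B1, AKR1B10, AKR1B15, AKR1C1, AKR1C2, AKR1C3, AKR1C4, AKR7A2 and AKR7A3, in cells exposed to cationic liposomes (CLs). The genes were taken by symbol, and all 10 were among the 40205 rows of the count table. AKR1C4 is in the list because the study named it as changed on these same 6 libraries, so its difference between the groups is given as a description without a test. The study also measured AKR1C4, among other genes, by quantitative PCR. It called the levels of these genes together nearly comparable to its RNA-seq, and those measurements were not used here. Counts over the tested members include AKR1C4 only where that is said. RNA-seq was run on cells of a human line labelled HepG2, a liver cancer line, in a control group of 3 libraries (Control-1 to Control-3) and a CLs-treated group of 3 libraries (CLs-1 to CLs-3). By the labels, the treated cells received CLs at 120 μM for 24 h. The sources used here differ on the unit of this dose. The CLs were made of the cationic lipid DOTAP, cholesterol and a PEG-bearing lipid, and the control cells grew in the same medium without them. No label says whether the 3 libraries of a group came from separate cultures, so p-values measure only the spread between these libraries, which may be technical. The study calls them independent samples.

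Aldo-keto reductases use NADPH to turn aldehydes and ketones into alcohols. The AKR1C enzymes act on steroids and prostaglandins and lie side by side in the genome, the AKR1B enzymes act on sugars, retinal and lipid aldehydes, and the AKR7A enzymes act on aldehydes such as succinic semialdehyde and an aflatoxin product. In human cells the transcription factor NRF2, which answers to oxidants, is known to raise AKR1B10 and AKR1C1 to AKR1C3, while AKR1C4 is known as the liver member, with a role in bile acid synthesis.

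The label was checked against the cells' own RNA, and hepatocyte markers were nearly absent. Of 12 markers that HepG2 cells would carry, including albumin (ALB), alpha-fetoprotein (AFP), APOB and transferrin (TF), none had enough reads to be tested. Their reads summed to between 5 and 18 counts in a control library. In the CLs-treated group they summed to 106 counts in CLs-1 and to 3 and 1 in the other libraries. ALB was read 8 times in CLs-1 and nowhere else, AFP had at most 1 count in any library, and TTR had 0 in all 6. The data thus go against the label, and the line is called here the cells labelled HepG2.

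Total counts ran from 11418527 in CLs-3 to 13998946 in CLs-1, and a row with 3 or fewer counts in a library was read as at the floor. Values of a group are given in the order of the replicate numbers, Control-1 to Control-3 and CLs-1 to CLs-3. The exact intervals of shares and the floors cover counting error only, while the intervals of fold changes also take in the spread between libraries. CLs-1 and Control-3 stood apart from the other libraries of their groups. The chi-square statistic per gene, which is near 1 for sampling noise alone, was 8.26 between Control-1 and Control-2 and 8.83 between CLs-2 and CLs-3. It was 19.96 and 35.0 between Control-3 and the other controls, and 28.3 and 30.8 between CLs-1 and the other CLs-treated libraries. CLs-1 also held RNA of genes that were nearly absent elsewhere. The summed level of 6 blood cell markers, with HBB at 324 counts, was 33.7 CPM (counts scaled to a common library total) in CLs-1 and between 0.432 and 0.782 CPM in the other 5 libraries. In CLs-1 nearly all of it came from the hemoglobin genes HBB, HBA2 and HBA1, at 22.4, 8.17 and 2.35 CPM. The other markers stayed low, with 1 count each of PTPRC and ALAS2 in CLs-1. CD14 had 9 counts there and 3 to 5 in each other library. The summed level of 7 steroidogenic markers, such as STAR, was 51.3 CPM in CLs-1 and 15.4 to 20.6 CPM elsewhere. Outside CLs-1 most of this was FDX1. FDX1 had 17.9, 17.8 and 14.5 CPM in the controls and 17.3, 12.7 and 15.8 CPM after CLs. STAR had 0, 3 and 2 counts in the controls and 290, 0 and 1 after CLs. For CYP11A1 these were 11, 29 and 16 counts and 151, 29 and 29 counts. The 8 fibroblast markers summed to 730.0 to 1098 CPM in the controls and 807.7 to 954.1 CPM in the CLs-treated group. Most of this came from COL3A1. COL1A2 had 0, 2 and 1 counts in the controls and 1044, 0 and 0 after CLs. THY1 had 0, 1 and 0 counts in the controls and 58, 0 and 0 after CLs. LUM and GREM1 had reads in CLs-1 alone, with 7 and 42 counts. The part of these genes' source in the results below was not tested, and values without CLs-1 and without Control-3 stand beside those of each tested member. In bulk RNA, fewer cells of a kind and less RNA per cell cannot be told apart.

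The 4 AKR1C genes are close copies, which bears on how their reads can be told apart. Their coding sequences, all of 972 bases in GENCODE release 29, were compared base by base. AKR1C1 and AKR1C2 were 98.05% identical, with 19 differing bases. AKR1C4 was 88.5% identical to AKR1C1 and AKR1C3 and 87.8% identical to AKR1C2. To show where a short read cannot name its gene and where it can, 2 stretches of 80 coding bases are printed, the closest and the most different between AKR1C4 and the nearest of the others. Bases are counted from 1 at the A of the start codon, and capitals mark bases that differ from AKR1C4.
The closest stretch, bases 158 to 237, reads as follows.
AKR1C4: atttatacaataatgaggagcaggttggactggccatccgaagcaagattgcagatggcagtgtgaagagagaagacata
AKR1C1: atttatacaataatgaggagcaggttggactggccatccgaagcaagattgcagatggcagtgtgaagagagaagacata
AKR1C2: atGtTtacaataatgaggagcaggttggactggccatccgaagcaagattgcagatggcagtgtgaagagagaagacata
AKR1C3: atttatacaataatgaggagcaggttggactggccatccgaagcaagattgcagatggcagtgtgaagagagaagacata
The most different stretch, bases 867 to 946, lies near the end of the coding sequence.
AKR1C4: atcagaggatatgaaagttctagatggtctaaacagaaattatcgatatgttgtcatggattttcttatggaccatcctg
AKR1C1: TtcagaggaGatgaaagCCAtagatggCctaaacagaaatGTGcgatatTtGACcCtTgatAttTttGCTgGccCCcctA
AKR1C2: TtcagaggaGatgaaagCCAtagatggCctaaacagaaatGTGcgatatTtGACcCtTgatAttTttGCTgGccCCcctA
AKR1C3: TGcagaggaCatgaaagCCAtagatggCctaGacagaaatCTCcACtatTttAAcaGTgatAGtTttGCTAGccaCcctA
In the closest stretch AKR1C4 was identical to AKR1C1 and AKR1C3 and differed from AKR1C2 at 2 bases. In the most different one it differed from AKR1C1 and AKR1C2 at 24 bases each and from AKR1C3 at 28, while AKR1C1 and AKR1C2 were identical to each other there.

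Windows of 50 and 100 bases along whole transcripts were looked for, unchanged, in protein-coding transcripts of the other members. Pseudogenes were not searched, so the shares do not cover every read that could be misassigned. For AKR1C2, 32.9% of the 100-base windows of its transcript occurred unchanged in a transcript of another member, and for AKR1C1 17.4%. These were 1202 of 3657 and 1152 of 6606 windows, so the lower share of AKR1C1 goes with its longer transcript. The share was 4.98% for AKR1C3 and 0.456% for AKR1C4. At 50 bases the shares were 52.2%, 28.6%, 12.1% and 8.21% in the same order of genes. AKR1B10 and AKR1B15 shared 17 windows of 100 bases, 1.14% and 1.12% of each, and AKR7A2 and AKR7A3 shared 4. How the authors counted reads that match several genes is not given in the sources used here. The counts of AKR1C1 and AKR1C2 are therefore uncertain singly, and their sum is given as well. The count of AKR1C4 is uncertain too, as it made up at most 0.458% of the AKR1C reads in any library. With 2 or fewer differing bases allowed, AKR1C1 matched AKR1C2 in 77.3% of 100-base coding windows. On the same measure AKR1C4 matched AKR1C1 in 5.50%, AKR1C2 in 0.916% and AKR1C3 in 7.90% of windows. The part of wrongly assigned paralog reads in its count was not tested.

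The sequences just before the AKR1C genes resemble each other too. Because AKR1C1 to AKR1C4 were all higher on average after CLs, the 120 bases before each start in RefSeq are printed, with matches to the motifs named next in capitals.
AKR1C1, GRCh38.p14 chr10:4963295-4963414, plus strand: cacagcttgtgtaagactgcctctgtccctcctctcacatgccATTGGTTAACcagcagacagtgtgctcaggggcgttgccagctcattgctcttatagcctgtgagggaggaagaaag
AKR1C2, GRCh38.p14 chr10:5003858-5003977, minus strand: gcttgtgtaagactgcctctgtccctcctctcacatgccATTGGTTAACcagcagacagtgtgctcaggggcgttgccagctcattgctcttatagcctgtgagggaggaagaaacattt
AKR1C3, GRCh38.p14 chr10:5048661-5048780, plus strand: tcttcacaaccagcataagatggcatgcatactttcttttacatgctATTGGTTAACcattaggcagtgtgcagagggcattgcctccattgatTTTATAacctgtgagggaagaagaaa
AKR1C4, GRCh38.p14 chr10:5196717-5196836, plus strand: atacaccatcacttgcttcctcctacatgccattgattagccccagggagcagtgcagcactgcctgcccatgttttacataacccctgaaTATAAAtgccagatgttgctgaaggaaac
The motifs were searched on both strands in windows of 300 bases (250 before and 50 after each start), found for 8 of the 10 members. AKR1B10 and AKR1B15 had no such window and were not searched. The run ATTGGTTAAC, in which the letters CCAAT on the minus strand overlap GTTAAC, was chosen after the sequences were read. It occurred in AKR1C1, AKR1C2 and AKR1C3, and in 0.0403% of 27305 promoters, 11 in all. GTTAAC alone was in 2.6% of promoters and CCAAT alone in 35.7%, the latter in those of AKR1B1, AKR1C1, AKR1C2 and AKR1C3. TATAAA was in 12% of promoters, and in those of AKR1C3 and AKR1C4. The core of the antioxidant response element through which NRF2 acts, TGACNNNGC, was in 13.6% of promoters. Among the 8 members searched it was in that of AKR7A2. These matches describe letters in a short window and are not binding sites.

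In the control group, the members ranged from very abundant genes to genes at the floor. Counts were scaled to CPM with TMM factors and, to compare genes, divided by the length in kb of the longest-coding GENCODE transcript. AKR1B1, aldose reductase, which makes sorbitol from glucose, had the highest level, 514.2 ± 67.5 CPM per kb (SD, n = 3). AKR1C3, which forms testosterone and prostaglandin F, followed with 276.2 ± 102.6 CPM per kb (SD, n = 3). AKR1C2, which inactivates dihydrotestosterone, had 217.1 ± 102.4 CPM per kb (SD, n = 3). The ranges of these 3 genes over the 6 libraries overlapped, so their order is not fixed. AKR1C1, which inactivates progesterone, had 68.8 ± 27.2 CPM per kb (SD, n = 3), and AKR1A1, aldehyde reductase, 57.8 ± 9.27. AKR1C4 had 3.32 ± 0.723 CPM per kb (SD, n = 3), below AKR7A2 in all 6 libraries with no overlap of ranges, and AKR1B10 had 1.25 ± 0.474. AKR7A3 and AKR1B15 were lowest, at 0.420 ± 0.0563 and 0.0176 ± 0.0305 CPM per kb. The transcript used for AKR1C1 is 6705 bases long, and per kb of coding sequence AKR1C2 came first, at 839.0 ± 395.7, before AKR1B1 at 761.8 ± 100.0 (SD, n = 3 for each). From AKR1C1 down, the order was the same on both scales.

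**Figure D1:**
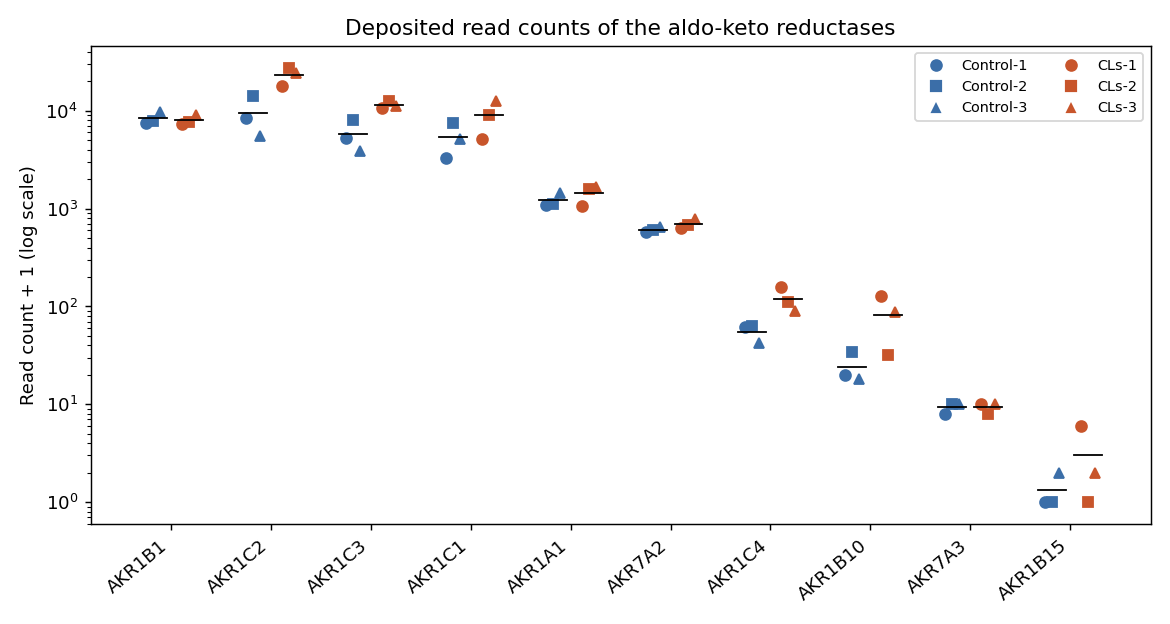
Deposited read counts plus 1, on a log axis, of the 10 aldo-keto reductases in each of the 6 libraries, with controls in blue, CLs-treated libraries in orange, the marker shape for the replicate number and a black line for the group mean. AKR1C2, AKR1C3 and AKR1C4 are higher in the CLs-treated libraries, while the groups overlap in the other 7 genes.

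The quasi-likelihood test of edgeR was used to compare the groups over 15047 genes with enough reads, and calls needed an adjusted p (Benjamini-Hochberg) below 0.05 together with a fold above 1.5 or below 0.67. Of the 10 members 8 had enough reads. In edgeR 0 of these 8, AKR1C4 included, were called higher, where 0.0133% of all genes tested were, and 0 were called lower, where 0.0731% were. Leaving AKR1C4 aside, 3 of the other 7 were higher after CLs at an unadjusted p-value under 0.05 (AKR1B10, AKR1C2 and AKR1C3), against 2.19% of all genes tested. A fold above 1.5 was reached by 4 of these 7, against 2.37% of genes tested. DESeq2 called 2 members higher, AKR1B10 and AKR1C3, against 0.108% of its 13950 genes, and 0 lower, against 0.645%. With the replicate number as a block, edgeR called 1 higher, AKR1C2, against 0.0798% of genes, and 0 lower, against 0.372%. In 3 of the 8, AKR1C2, AKR1C3 and, as a description, AKR1C4, every CLs-treated library lay above every control, against 5.34% of genes tested, and in 0 every one lay below, against 6.18%. Without CLs-1 this held for 6 of the 8, against 13.6% of genes, the added genes being AKR1A1, AKR1C1 and AKR7A2. Without Control-3 it held for the same 3, against 10.5%. As AKR1C4 was chosen on this comparison and the list was put together with results known, these shares describe the genes and support nothing more.

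AKR1C4 had few reads, all above the floor. Its counts were 60, 62 and 41 in the controls and 156, 109 and 89 after CLs. Control-3 was the lowest library, and the lowest CLs-treated library was above the highest control. Its level was 4.69 ± 1.02 CPM (SD, n = 3) in the control group and 9.34 ± 1.503 CPM (SD, n = 3) after CLs. The log2 fold change was 0.99 (standard error, SE, 0.24, 95% interval 0.47 to 1.52). Leaving out each library in turn moved it between 0.82 (without Control-3) and 1.11 (without CLs-3), and without CLs-1 it was 0.87.

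AKR1C2, the closest copy of AKR1C1, had the most reads of the family after CLs. Its level was 735.9, 1234 and 477.0 CPM in the controls and 1250, 2382 and 2109 CPM after CLs. The groups did not overlap, though CLs-1 was only just above Control-2. On the log2 scale the fold change was 1.23 (SE 0.32, edgeR adjusted p = 0.293). It was 1.46 without CLs-1 and 0.96 without Control-3.

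AKR1C3, the testosterone-forming member, had a smaller standard error. It had 462.3, 700.3 and 334.9 CPM in the controls and 742.3, 1082 and 979.3 CPM after CLs. Again the groups did not overlap, with CLs-1 next to Control-2. This gave a log2 fold change of 0.90 (SE 0.24), with an adjusted p = 0.325 in edgeR and 0.0146 in DESeq2. Without CLs-1 it was 1.05 and without Control-3 it was 0.68 in edgeR.

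AKR1C1 was spread within both groups. Its level was 288.4, 651.5 and 443.5 CPM in the controls and 356.7, 788.6 and 1101 CPM after CLs. CLs-1 lay among the controls, so the groups overlapped. The log2 fold change was 0.70 (SE 0.36, edgeR adjusted p = 0.897), with a 95% interval from -0.10 to 1.4998. It moved from 0.31 without CLs-3 to 1.03 without CLs-1, and was 0.67 without Control-3. With the reads of AKR1C1 and AKR1C2 added into 1 row, which removes any split between them, the log2 fold change was 1.06 (SE 0.31, edgeR adjusted p = 0.373).

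AKR1C4 was set beside its paralogs. The 95% interval of AKR1C4 (0.47 to 1.52) held the fold changes of AKR1C1, AKR1C2 and AKR1C3, and no test of the difference between genes was made. All 4 genes added into 1 row gave a log2 fold change of 1.02 (SE 0.29, edgeR adjusted p = 0.347). Their summed level was 1492, 2591 and 1259 CPM in the controls and 2360, 4262 and 4197 CPM after CLs. The sum thus overlapped between the groups, since Control-2 was above CLs-1. AKR1C4 made up a very small part of these reads. Its share was 0.349% (exact 95% interval 0.267 to 0.449), 0.207% (0.158 to 0.265) and 0.279% (0.200 to 0.379) in the controls. After CLs it was 0.458% (0.389 to 0.535), 0.221% (0.182 to 0.267) and 0.186% (0.149 to 0.229). The mean share was 0.278% ± 0.0713 (SD, n = 3) in the controls and 0.288% ± 0.148 (SD, n = 3) after CLs, a difference smaller than the spread. AKR1C4 had its highest count in CLs-1, where the sum of the paralogs was lowest among the treated libraries. Without CLs-1 the mean share after CLs was 0.203%, below the controls by 0.075 percentage points (a difference of -0.075).

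**Figure D2:**
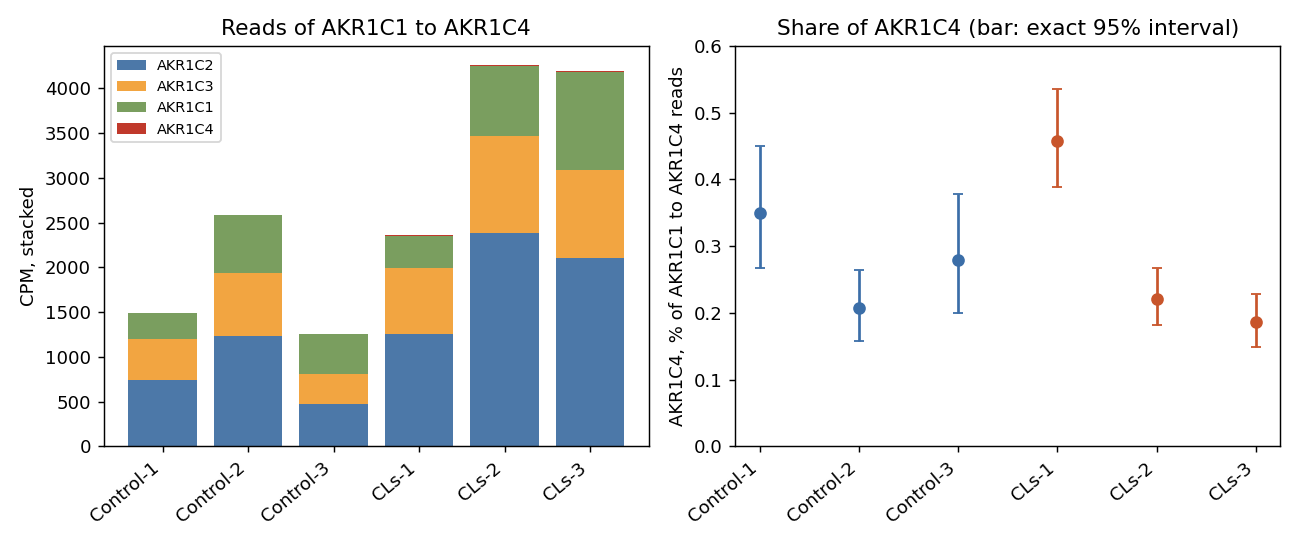
Left, the CPM of AKR1C1, AKR1C2, AKR1C3 and AKR1C4 stacked for each of the 6 libraries. Right, AKR1C4 as a percentage of the reads of the 4 genes, with exact binomial 95% intervals for counting error, controls in blue and CLs-treated in orange, where CLs-1 stands highest at 0.458% and CLs-3 lowest at 0.186%.

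AKR1B10, which reduces retinal and lipid aldehydes and is often raised in liver tumours, had the largest fold change of the tested members over all 6 libraries, though without CLs-1 that of AKR1C2 was larger. Its counts were 19, 33 and 17 in the controls and 126, 31 and 87 after CLs. CLs-1 and CLs-3 were well above the controls, while CLs-2 lay within their range. Its level was 1.99 ± 0.754 CPM (SD, n = 3) in the control group and 6.34 ± 3.22 CPM (SD, n = 3) after CLs. Its log2 fold change of 1.68 (SE 0.43) had an adjusted p = 0.284 in edgeR and 0.0326 in DESeq2. It was 1.37 without CLs-1, 1.499 without Control-3 and 2.04 without CLs-2. Its pseudogene AKR1B10P1, with which reads could be split, had 2, 2 and 0 counts in the controls and 8, 5 and 9 after CLs. AKR1B15, the near copy of AKR1B10, had 0, 0 and 1 counts in the controls and 5, 0 and 1 after CLs. It was at the floor in all libraries but CLs-1, and no fold is given. Added to AKR1B10 it gave a log2 fold change of 1.69 (SE 0.43, edgeR adjusted p = 0.280).

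The other tested members, AKR1B1, AKR1A1 and AKR7A2, had 95% intervals that included 0. AKR1B1 had 724.5 ± 95.1 CPM (SD, n = 3) in the control group and 655.2 ± 143.5 CPM (SD, n = 3) after CLs. Its libraries overlapped from 509.7 CPM in CLs-1 to 832.9 CPM in Control-3. The log2 fold change was -0.15 (SE 0.18, edgeR adjusted p = 0.998), with a 95% interval from -0.54 to 0.25, and without CLs-1 its sign turned, to 0.0064. Without Control-3 it was -0.032. AKR1A1 had 105.1 ± 16.8 and 119.6 ± 39.4 CPM in the control and CLs-treated groups (SD, n = 3 for each), and 74.3 CPM in CLs-1 was its lowest value. Its log2 fold change was 0.19 (95% interval -0.32 to 0.69). It was 0.44 without CLs-1, 0.33 without Control-3 and 0.017 without CLs-3. AKR7A2 had 52.4 ± 2.52 and 57.1 ± 12.9 CPM in the 2 groups (SD, n = 3 for each), a log2 fold change of 0.12 (95% interval -0.25 to 0.50). CLs-1 was its lowest library too, at 43.3 CPM, and the log2 fold change was 0.29 without it, 0.16 without Control-3 and -0.038 without CLs-3. AKR7A3 had 7 or 9 counts in every library, too few to be tested, at 0.719 ± 0.0962 and 0.672 ± 0.101 CPM.

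**Figure D3:**
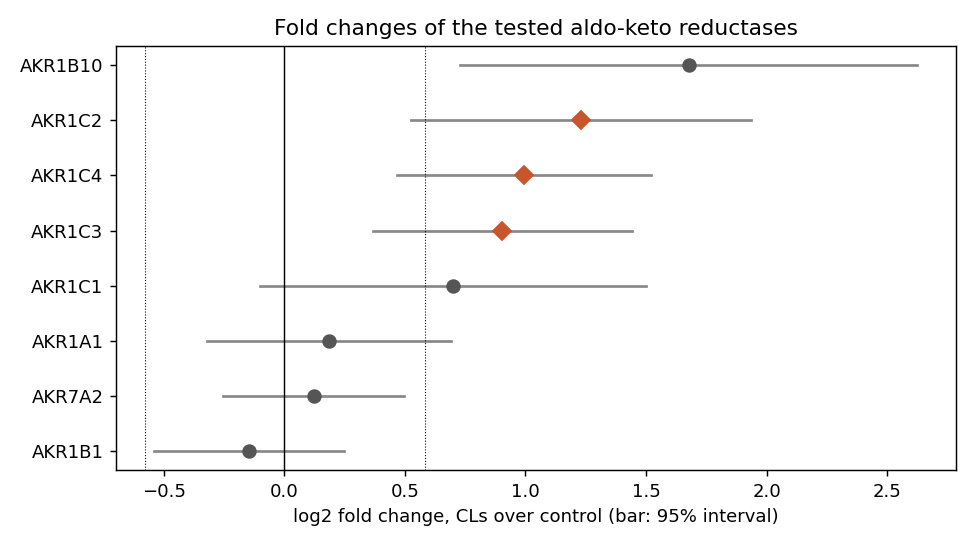
log2 fold changes, CLs over control, of the 8 tested aldo-keto reductases from edgeR, with bars for 95% intervals, a solid line at 0 and dotted lines at folds of 1.5 and 0.67. Orange diamonds mark AKR1C2, AKR1C3 and AKR1C4, whose groups do not overlap, and the intervals of AKR1C1, AKR1A1, AKR7A2 and AKR1B1 cross 0.

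Other genes of the superfamily were mostly low. Of 10 further aldo-keto reductase rows and related potassium channel beta subunits looked for, 9 were in the table, 2 of them with 0 counts in all libraries (AKR1D1 and AKR1CL1), and 3 had enough reads. AKR1D1, which works beside AKR1C4 in bile acid synthesis, was thus not detected, and 3 counts, the limit a count of 0 allows, are 0.214 to 0.263 CPM by library total. AKR1E2, the neighbour of the AKR1C genes, had 16, 20 and 17 counts in the controls and 35, 46 and 41 after CLs. Its groups did not overlap, and its log2 fold change was 1.11 (SE 0.31, edgeR adjusted p = 0.333). KCNAB2 had a log2 fold change of -0.05 and KCNAB3 of 0.75, and neither was called.

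NRF2 (NFE2L2), its repressor KEAP1 and known targets formed a list of 24 genes, since AKR1B10 and AKR1C1 to AKR1C3 are known among its targets. In edgeR 0 of the 24 were called in either direction, while 8 had an unadjusted p-value under 0.05. Of all 15047 genes tested 13 were called, 2 higher and 11 lower, and 874 had an unadjusted p-value under 0.05. In 23 of the 24 the log2 fold change was above 0, with a median of 0.41, where the median of all genes tested was 0.01 and 7832 of 15047 were above 0. In 8 of the 24 the CLs-treated libraries lay above every control, against 5.34% of genes tested, and without CLs-1 in 17 of the 24, against 13.6%. Without Control-3 this held for 8 of the 24, against 10.5%. Control-3 was the lowest of the 6 libraries in 18 of the 24 genes, against 22.0% of all genes tested, and without Control-3 the median was 0.28, with 22 of 24 above 0. Without CLs-1 it was 0.52. Control-3 was also the lowest library in 4 of the 8 tested members. Its part in the members' values was not tested beyond the values without it given above. Of the genes with the highest level, FTL, the ferritin light chain, had a log2 fold change of 0.60 (SE 0.25, edgeR adjusted p = 0.769). FTH1 had 0.36 and SQSTM1, an autophagy receptor, 0.70. HMOX1, heme oxygenase, named after its values were seen, had 477, 463 and 177 counts in the controls and 1287, 913 and 634 after CLs, a log2 fold change of 1.21 (edgeR adjusted p = 0.288). The study also named HMOX1 as changed on these same libraries, so its values are a description. HMOX1 was called higher with the replicate block (edgeR adjusted p = 0.0047), where 0.0798% of all genes were. With every gene that had a read it was called too (edgeR adjusted p = 0.00054), where 58 of 25432 genes were called higher. In DESeq2, with other scalings, with a CPM filter and with each library left out, 0 of the 24 were called.

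Enzymes that share substrates with the members were taken in further lists, to be read beside the counts over all genes just given. Of 20 steroid reductases and hydroxysteroid dehydrogenases 12 had enough reads, and edgeR called 0, with 3 at an unadjusted p-value under 0.05 and a median log2 fold change of 0.09. The most abundant were HSD17B10, HSD17B4 and SRD5A1, with log2 fold changes of 0.08, 0.11 and -0.07. For bile acid synthesis, 6 of 13 genes were tested and edgeR called 0, with 0 at an unadjusted p-value under 0.05 and a median of 0.13. CYP7A1, its rate-limiting enzyme, had at most 2 counts in any library, while HSD17B4, SCP2 and HSD3B7, the most abundant, had log2 fold changes of 0.11, 0.16 and -0.12. In carbonyl and aldehyde metabolism 28 of 36 genes were tested and edgeR called 0, with 6 at an unadjusted p-value under 0.05, 14 above and 14 below 0, and a median of -0.02. Its most abundant genes were NQO1, a quinone reductase, ALDH3A2, a fatty aldehyde dehydrogenase, and CBR1, a carbonyl reductase, with log2 fold changes of 0.59, 0.55 and 0.19. In NQO1 and ALDH3A2 the CLs-treated libraries lay above all controls, with adjusted p-values of 0.462 and 0.260 from edgeR. These were the 2 such genes of the 28, against 5.34% of all genes tested. In 1 of the 28 the CLs-treated libraries lay below all controls, against 6.18%. With every gene that had a read, edgeR called ALDH1A1 higher and DHRS3 lower in this list, HSD11B1 higher among the steroid enzymes, and GCLC and ABCC2 higher in the NRF2 list. In that fit 58 of 25432 genes were called higher and 113 lower. The reads of ALDH1A1 and HSD11B1 were nearly all in CLs-1, with 191 and 73 counts there and at most 4 and 1 in any other library. Of 14 liver transcription factors 4 were tested and edgeR called 0, with 0 at an unadjusted p-value under 0.05. HNF4A, a regulator of hepatocyte genes, had at most 9 counts in any library. CEBPB and FOXA1 had log2 fold changes of 0.09 and -0.19.

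**Figure D4:**
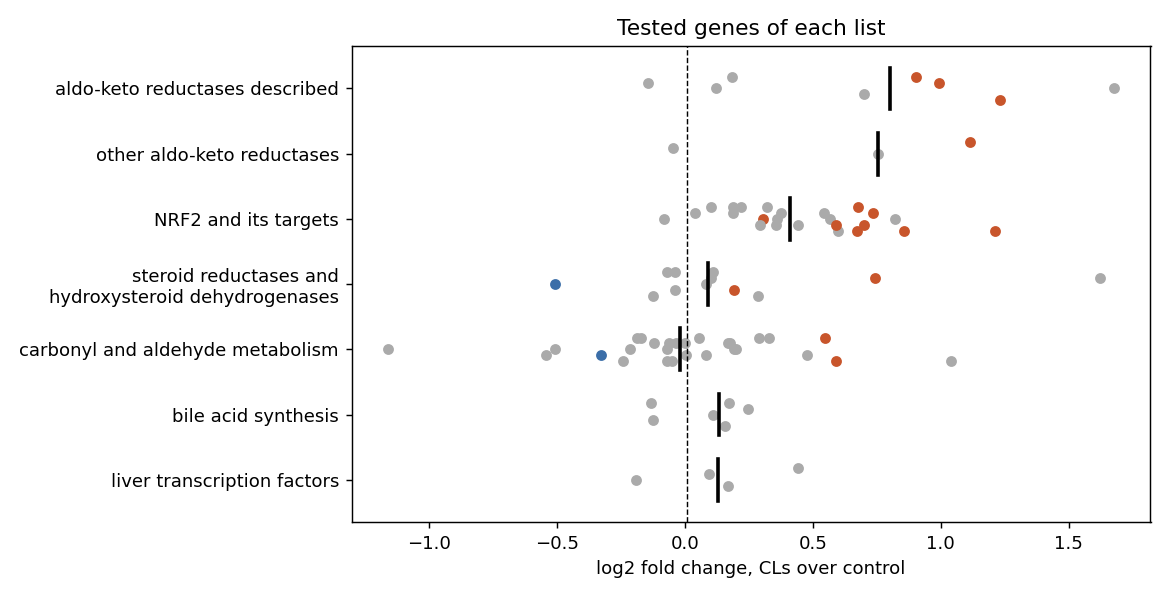
log2 fold changes, CLs over control, of the tested genes of each list, with orange for genes whose CLs-treated libraries lie above all controls, blue for those below and grey for the rest. Black bars are list medians and the dashed line is the median of all 15047 genes tested, and the NRF2 list sits at 0.41 while carbonyl and aldehyde metabolism sits at -0.02.

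The genes most like AKR1C4 over the 6 libraries were sought among 14628 tested genes with a mean of at least 1 CPM, by Pearson correlation of log2(CPM + 1). They were LOC101929397 (0.995), MIR3654 (0.993), PITPNA-AS1 (0.987), GBE1 (0.987) and SLC38A6 (0.987), each over n = 6 libraries in 2 groups. With so few points high values are found among many genes, and these are a description. GBE1, the glycogen branching enzyme, had 71.8, 70.3 and 54.8 CPM in the controls and 99.8, 88.9 and 82.0 CPM after CLs. SLC38A6, an amino acid transporter, had a log2 fold change of 0.91. Of the paralogs, AKR1C3 correlated at 0.836 and AKR1C2 at 0.801, in places 482 and 663 of that order. AKR1C1 correlated at 0.257, in place 4993.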

How the data were processed

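Single-end Ion Proton reads of 6 libraries were mapped by the authors with MapSplice, and the submitters' notes name HTSeq 0.6.1 and the build hg19 (GRCh37). The authors deposited raw counts per gene symbol, without normalization. Strand setting and annotation are not given in the sources used here, so reads of overlapping genes on opposite strands may be mixed. The authors' RPKM and EBSeq steps were not used, and EBSeq was not run.

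Counts were compared with edgeR 4.0.16 in R 4.3.3 (filterByExpr, TMM, quasi-likelihood F test on condition, 15047 genes, adjusted over all of them). Standard errors were derived from the F statistic. DESeq2 1.42.0, other scalings and filters, merged paralogs, a block by replicate number and leaving out single libraries were alternatives. The smallest two-sided exact permutation p for 3 against 3 libraries is 0.1. Tested on simulated data for this comparison, the fit found 70.4% of genes with a fold of 2 (15079 genes fitted) and 7.07% with a fold of 1.5 (15095 genes fitted). The simulation took each gene's spread from the trend over genes and held no library that stood apart as CLs-1 and Control-3 did. These shares may therefore be too high for the real libraries.

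The members and lists were chosen with earlier results of these data known. Named were all members, the 5 genes most like AKR1C4, and of each list every gene called and the 3 with the highest mean CPM, the latter being KCNAB2, AKR1E2 and KCNAB3 for the other aldo-keto reductases. CYP7A1, AKR1D1, AKR1CL1, HNF4A, HMOX1, the genes called only with every gene that had a read, and the markers and pseudogenes were named outside the rule, with their values known. A gene that this rule would name among the liver transcription factors is not reported here. Lengths and coding sequences came from GENCODE 29 and promoters from RefSeq, both on GRCh38. The count table has no coordinates.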

Additional observations from a re-analysis of the deposited data

How the results depend on the processing

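Of the members, 0 were called higher in edgeR over all 6 libraries, 2 (AKR1B10 and AKR1C3) in DESeq2, 4 in edgeR with every gene that had a read (AKR1B10, AKR1C2, AKR1C3 and AKR1C4, the last chosen on this comparison, so that its call is no evidence), and 1 (AKR1C2) with the replicate block. Other scalings, a CPM filter, no fold criterion, merged paralogs and each left-out library gave 0, and no alternative called a member lower. Over all genes, 2 were called higher and 11 lower in edgeR, 15 and 90 in DESeq2, and 12 and 56 with the replicate block. A left-out library gave 1 to 3 and 2 to 6. With every gene that had a read, 58 and 113 of 25432 genes were called. In that fit the log2 fold changes of the 4 members stayed close to the main ones. Their standard errors were 0.21 against 0.32 (AKR1C2), 0.18 against 0.24 (AKR1C3), 0.34 against 0.43 (AKR1B10) and 0.25 against 0.24 (AKR1C4). The part of this in the calls was not tested. The log2 fold change turned sign in AKR1B1 without CLs-1 (0.0064, with -0.31 at the other end, without CLs-3) and in AKR7A2 without CLs-3 (-0.038, with 0.29 without CLs-1), and the cause was not tested. No label says that same-numbered libraries were paired, and pairing was not tested. Deviations of same-numbered libraries correlated at 0.0998, 0.122 and 0.333, and every library correlated best with its own number. With the block AKR1C2 had an adjusted p of 0.0361 in edgeR. Leaving out each library gave AKR1C4 a log2 fold change from 0.82 to 1.11, and its share difference ran from -0.075 to 0.061 percentage points. AKR1C4 and AKR1B10 rest on 41 to 156 and 17 to 126 counts per library, fewer than the other tested members.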

Other observations

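The split of reads between the near-identical AKR1C2 and AKR1C1 differed between libraries. The ratio of AKR1C2 to AKR1C1 counts was 2.55, 1.89 and 1.08 in the controls and 3.50, 3.02 and 1.92 after CLs, by replicate number. The groups overlapped in this ratio, and no test was made. Of the AKR1B1 pseudogene rows, AKR1B1P1, AKR1B1P2, AKR1B1P3 and AKR1B1P7 had enough reads to be tested. AKR1B1P7 had 87, 84 and 97 counts in the controls and 53, 75 and 117 after CLs, against 7362 to 9713 counts for AKR1B1 itself.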
